A study of Mesocricetus auratus with 36 samples.

Results

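The genes described here build the axoneme, the shaft of motile cilia. They were chosen by name, as the genes of the count tables whose symbol begins with Dnah, Dnai, Cfap, Rsph, Drc, Tekt or Odad followed by a digit, with a mean of 1 or more CPM (counts per 1000000 counts of the library) over the 36 libraries. Of 72 genes with such a name among the 32340 genes of the tables, 69 reached that level and are the members. The rule used no difference between groups.

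A motile cilium has an outer ring of microtubule doublets around a central pair. Outer and inner dynein arms slide the doublets past each other, the nexin-dynein regulatory complex links neighbouring doublets, and radial spokes carry signals from the central apparatus to the arms. Tektins and microtubule inner proteins line the inside of the doublets, and cytoplasmic factors preassemble the dynein arms. In the brain such cilia belong to the ependymal cells that line the ventricles and move cerebrospinal fluid. Tanycytes, the glial cells of the ventricle floor, mostly lack them.

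RNA came from 36 male golden hamsters (Mesocricetus auratus), from hypothalamic ependymal tissue cut out by laser capture and enriched for tanycytes, with 6 animals in each of 6 groups. Long photoperiod animals had 14 h of light at 22 °C and were 8 months old per the labels, although the protocol places their sampling both before the switch of day length and at the end. All other groups had 10 h of light at 8 °C. They were sampled at 4 weeks (pre-hibernation, 4 months old), at 8 to 12 weeks without torpor (late pre-hibernation, 6 months old), 23 h into a warm interval between torpor bouts (interbout euthermia, 6 months old) or 13 h into a bout (torpor, 6 months old), the last 2 after 3 torpor cycles. The refractory animals, 8 months old, were taken at about 20 weeks, at least 2 weeks after hibernation had ended by itself. Long photoperiod differed from every other group in both day length and temperature, and from all but the refractory group in labelled age, and these cannot be told apart. Late pre-hibernation, interbout euthermia and torpor share day length, temperature and age.

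The libraries held 5.16 to 28.54 M counts, and the members took 0.617% to 1.497% of them. Each member had a count in all 36 libraries, and all 69 are protein-coding genes in the RefSeq table. Genes of ribosomal RNA (rRNA) took 41.8% of the counts in refractory 4, 9.28% in pre-hibernation 5 and 7.21% in interbout euthermia 6, and 0.219% to 0.826% in the other 33. The same 3 libraries had the lowest totals, 5.16, 12.74 and 14.11 M counts in that order. Mitochondrial genes took 18.3%, 11.8% and 14.3% of their counts, and 2.02% to 3.42% in the other 33. These 3 rRNA-rich libraries bear directly on the members, and counts of changed members are given with and without them. Tanycyte markers were present in every group, with a summed level over 21 markers of 3176 to 6861 normalised CPM in single libraries. Normalised CPM are CPM scaled by trimmed mean of M values (TMM), means are ± SD with n = 6 animals, and log2 fold changes are ± SE.

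Levels per kilobase of exon, averaged over the 36 libraries, spanned a wide range, also within roles. Among microtubule inner proteins, Cfap126, also known as Flattop, was the highest member at 817 normalised CPM per kb and Cfap161 stood at 253. Among radial spoke proteins, the spoke head subunits Rsph1 and Rsph9 stood at 441 and 196 normalised CPM per kb. Tekt1 led the tektins at 261, with Tekt5 at 143. The dynein assembly factors Cfap298 and Cfap300 stood at 214 and 198 normalised CPM per kb. Cfap126 alone made up 15.7% of the members' summed level per kb.

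The intermediate chains Dnai3 and Dnai2 stood at 147 and 79.5 normalised CPM per kb, and the docking complex genes Odad1 and Odad3 at 97.8 and 72.5. Heavy chains, the motor subunits, had the lowest role medians, with a median of 5.11 normalised CPM per kb over 4 outer arm genes and 6.82 over 7 inner arm genes. All these heavy chains have exons over 10 kb in sum, so role and length cannot be told apart here. Dnah5 and Dnah9 led the outer arm heavy chains at 8.78 and 7.62, and Dnah12 and Dnah6 the inner arm ones at 10.96 and 10.9. The 9 central apparatus genes had a median of 13.8 normalised CPM per kb, led by Cfap70 at 28.2 and Cfap54 at 15.9. Drc3 and Drc1 of the nexin-dynein regulatory complex stood at 192 and 57.1 normalised CPM per kb. The inner arm tether and regulator genes Cfap73 and Cfap43 stood at 139 and 45.8. Of the genes with no role assigned here, Cfap36 was at 102 and Cfap299 at 48.1.

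At the lower edge of the rule, the 3 members with the lowest means were Dnah8 at 2.53, Cfap92 at 3.12 and Cfap20dc at 19.3 CPM, the last far above the limit. Dnah14, Rsph6a and Cfap97d1 were outside it, at 0.784, 0.285 and 0.192 CPM. Dnah8 is an outer arm heavy chain known best from sperm. Its normalised level lay between 0.867 and 5.22 CPM in 35 libraries and was 37.7 CPM in refractory 4, so that its refractory mean rests on that library.

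Fragments were counted without strand, and 13 members share exon bases with another annotated gene, 3 of them over 10% of their exon length. Among them are Cfap73 (25.4%, with Ddx54 on the opposite strand) and Cfap70 (11.1%, with Mrps16). None of the 11 members that differed among the groups by edgeR on all libraries shares an exon base with another gene in the annotation. Members called only in other fits include some that do, such as Cfap73 (25.4%) and Odad3 (2.90%).

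The members rose and fell together from animal to animal. The median correlation between log2 levels of 2 members was 0.66 over the 33 libraries low in rRNA and 2346 pairs, against a median of -0.02 between a member and the 15190 other genes tested with a mean of 1 CPM or more. On deviations from the group mean, which leave out differences between groups, the median was 0.67. A member's correlation with the mean of the other 68 had a median r of 0.81 and a median rho of 0.77, and exceeded 0.5 for 66 of 69 members. Over all 36 libraries the median r with the mean of the others was 0.64 (rho 0.71), and 0.60 (rho 0.67) without late pre-hibernation 1 and refractory 2, the libraries farthest from the median of the members' mean.

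Drc7 of the nexin-dynein regulatory complex, Cfap44 of the inner arm tether and Tekt3 followed the others most closely over 36 libraries, with r of 0.91, 0.91 and 0.89. Cfap97, Dnah11 and Dnah8 followed them least, with r of -0.08, -0.05 and -0.03. For Dnah11, an outer arm heavy chain, and Dnah8 the value became 0.51 and 0.21 without the rRNA-rich libraries. Cfap97 stayed at -0.11, and its group means lay between 24.8 and 28.1 normalised CPM with a median within-group coefficient of variation of 9.51%. These correlations describe libraries that share depth and dissection, and carry no test.

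**Figure D1:**
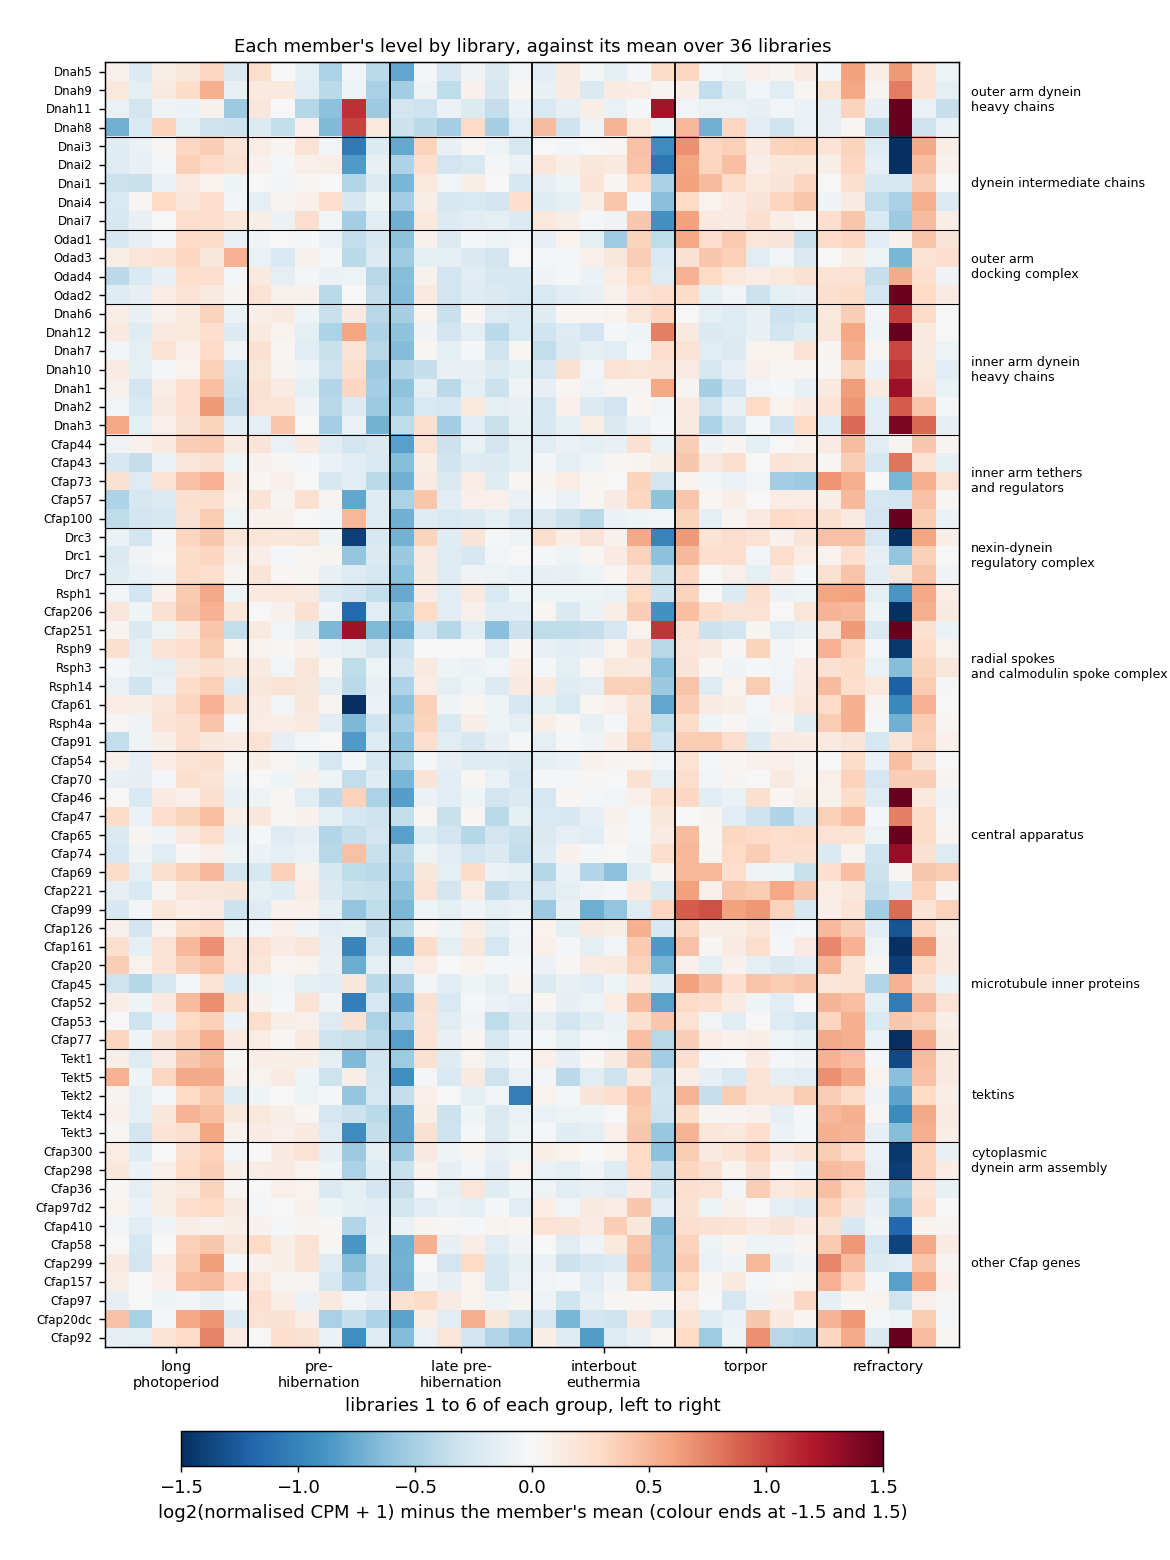
Map of the 69 members (rows, by role) in the 36 libraries (columns, libraries 1 to 6 of each group from left to right). Colour gives log2(normalised CPM + 1) minus the member's mean, and the column of refractory 4 splits into long genes above and short genes below their mean, while late pre-hibernation 1 is low over most rows.

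The summed level of the members was lowest in late pre-hibernation and highest in the refractory animals. It was 12055 ± 1675 normalised CPM in long photoperiod, 10500 ± 1222 in pre-hibernation and 10132 ± 1541 in late pre-hibernation. Interbout euthermia stood at 11102 ± 1467, torpor at 12148 ± 1086 and refractory at 12698 ± 2036. Relative to long photoperiod these are ratios of 0.87, 0.84, 0.92, 1.01 and 1.05. The ranges of all 6 groups overlapped: long photoperiod libraries spanned 9942 to 14463 normalised CPM and late pre-hibernation libraries 7464 to 12019.

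Without the rRNA-rich libraries the pre-hibernation mean was 10765, the interbout mean 11458 and the refractory mean 13054 normalised CPM. Scaled by library totals alone, the torpor and refractory ratios to long photoperiod were both 0.98, below 1. The refractory ratio includes the rRNA-rich refractory 4, which had the lowest summed level of all libraries in that scaling, 6174 CPM. The other refractory libraries ran from 10692.5 to 14965.3 CPM, and those of long photoperiod from 10412.5 to 14917.2. The value of 0.98 for refractory is therefore not read as a lower level in that group. By member, 48 of 69 had their lowest group mean in late pre-hibernation, 32 their highest in refractory, 21 in torpor and 15 in long photoperiod. In this bulk tissue a smaller share of ciliated cells and less ciliary RNA per cell cannot be told apart.

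**Figure D2:**
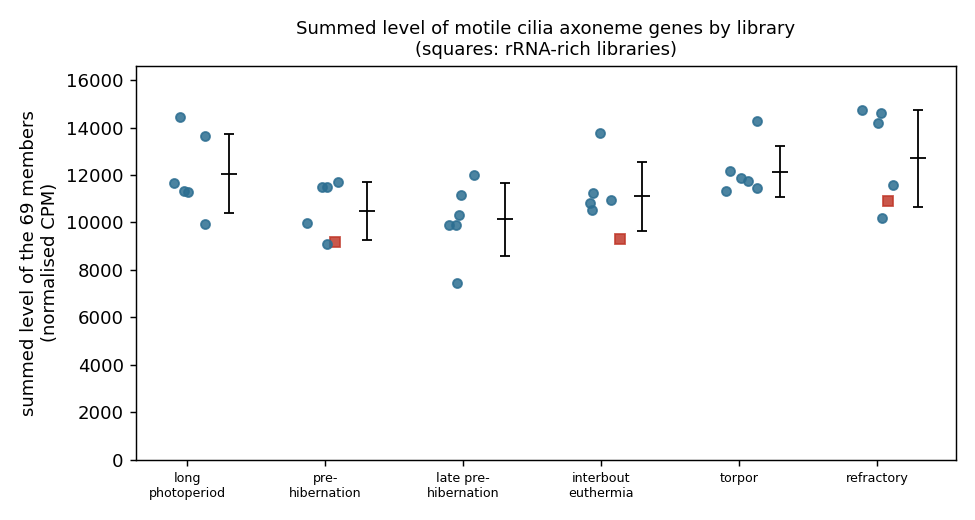
Summed level of the 69 members in normalised CPM (vertical axis) for each library, by group (horizontal axis). Points are libraries, squares the 3 rRNA-rich libraries, and bars the mean ± SD of 6 animals, with overlapping ranges in all groups.

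Of the members, 11 differed among the 6 groups by edgeR's quasi-likelihood F test with Benjamini-Hochberg adjustment over all 17926 genes tested. These 11 of 69 (15.9%) compare with 14.6% of all genes tested. Without the rRNA-rich libraries 27 of 69 (39.1%) passed, against 27.7% of all genes, and 9 of the 11 were among them. The 2 that left were Dnah1 (adjusted p = 0.0516) and Dnah3 (adjusted p = 0.148). By role, the 11 were 5 of 9 central apparatus genes, 3 of 7 inner arm heavy chains, and 1 gene each of the microtubule inner proteins, tektins and calmodulin spoke complex. None of the 4 outer arm heavy chains, 5 intermediate chains, 4 docking genes, 3 nexin-dynein regulatory genes or 2 assembly factors passed in this fit. That split by role did not hold in other fits: in the 33 libraries low in rRNA Dnai1, Dnai2, Odad3, Odad4 and Cfap298 passed, and DESeq2 on all 36 called Dnah5, Dnah9, Dnai1 and all 4 docking genes. DESeq2 called 26 members in all (23.0% of all genes), limma voom 53 (43.4%), edgeR with a filter of 1 CPM 18 (15.3%) and with a replicate block 5 (10.7%).

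Torpor against interbout euthermia asks what a torpor bout does within the hibernation season, and held the only members called in a comparison of 2 groups by the edgeR fit of all libraries. There, 3 members rose and none fell, that is 3 of 69 (4.35%) against 4.06% of all genes tested. They were Cfap45, a microtubule inner protein, and Cfap221 and Cfap99 of the central apparatus. At an unadjusted p under 0.05 there were 7 members, all higher, against 15.3% of all genes. The median log2 fold change was 0.13 and 55 of 69 members were higher, with a median of 0.01 and 51.9% higher over all genes. The median was 0.08 without torpor 1. In the 33 libraries low in rRNA it was 0.09, with 48 of 69 higher, and 15 members had an unadjusted p under 0.05, 11 higher and 4 lower, against 21.5% of all genes.

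Cfap45 ran from 189 to 243 normalised CPM in torpor (median 214) and from 138 to 176 in interbout euthermia (median 144). The 2 groups did not overlap. The rise was 1.44-fold, a log2 fold change of 0.53 ± 0.12 (adjusted p = 0.00766, edgeR). In long photoperiod the lowest, median and highest values were 118, 134 and 184 normalised CPM, in pre-hibernation 120, 148 and 178, and in late pre-hibernation 110, 147 and 163. Refractory libraries ran from 117 to 229 (median 183), with refractory 4 the highest. Torpor thus had the highest mean, 214 ± 17.3, and the other 5 group means lay between 142 ± 23.9 and 174 ± 37.99 normalised CPM.

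Cfap221 ran from 37.5 to 54.7 normalised CPM in torpor (median 47.3) and from 29.6 to 39.3 in interbout euthermia (median 33.1). Torpor 2 lay within the interbout range and the other 5 torpor libraries above it. Its log2 fold change was 0.52 ± 0.13 (adjusted p = 0.012, edgeR), a 1.43-fold rise. Medians in the remaining groups were 38.2 in long photoperiod (29.97 to 40.5), 30.8 in pre-hibernation (27.98 to 38.4), 29.4 in late pre-hibernation (22.8 to 40.8) and 37.3 in refractory (27.7 to 45.1). Without the count filter the rise did not pass (adjusted p = 0.0636).

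Cfap99 ran from 27.9 to 65.1 normalised CPM in torpor (median 51.8) and from 19.6 to 41.9 in interbout euthermia (median 25.7). Torpor 6 was low and the rRNA-rich interbout euthermia 6 was high, and the other 5 torpor libraries lay above every interbout library. The log2 fold change was 0.87 ± 0.19 (adjusted p = 0.00422, edgeR), a 1.83-fold rise, and 1.02 ± 0.17 (adjusted p = 0.000119) without the rRNA-rich libraries. Medians elsewhere were 34.0 in long photoperiod (26.3 to 37.7), 29.4 in pre-hibernation (21.9 to 34.96), 30.6 in late pre-hibernation (20.4 to 32.0) and 38.4 in refractory (22.8 to 60.0).

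With the mean log2 level of 69 other motile cilia genes as a covariate, the median log2 fold change of the members in torpor was 0.03. This covariate had an r of 0.95 with the members' mean over all 36 libraries. The small median follows from that and is not read as a result. The log2 fold changes of the 3 called members were 0.83, 0.48 and 0.42 for Cfap99, Cfap45 and Cfap221. The covariate fit called 4 members against 4.85% of all genes, these 3 and Cfap73 of the inner arm tethers and regulators. Cfap73 fell, and was singled out after its values were seen. In the 33 libraries low in rRNA 5 members rose, 5 of 69 (7.25%) against 8.94% of all genes tested, the added genes being the central apparatus members Cfap65 and Cfap74. Cfap65 stood at 112 ± 10.8 normalised CPM in torpor and 86.0 ± 6.39 in 5 interbout libraries (log2 fold change 0.36 ± 0.09, adjusted p = 0.0113). Cfap74 stood at 94.5 ± 10.0 and 74.9 ± 4.53 (0.32 ± 0.09, adjusted p = 0.0186). By edgeR on all 36 libraries neither passed (adjusted p = 0.402 and 0.484). Limma voom on all 36 called both, among 8 members against 10.7% of all genes, and edgeR on the 12 libraries of the 2 groups alone called Cfap65, among 4 members against 4.30%.

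**Figure D3:**
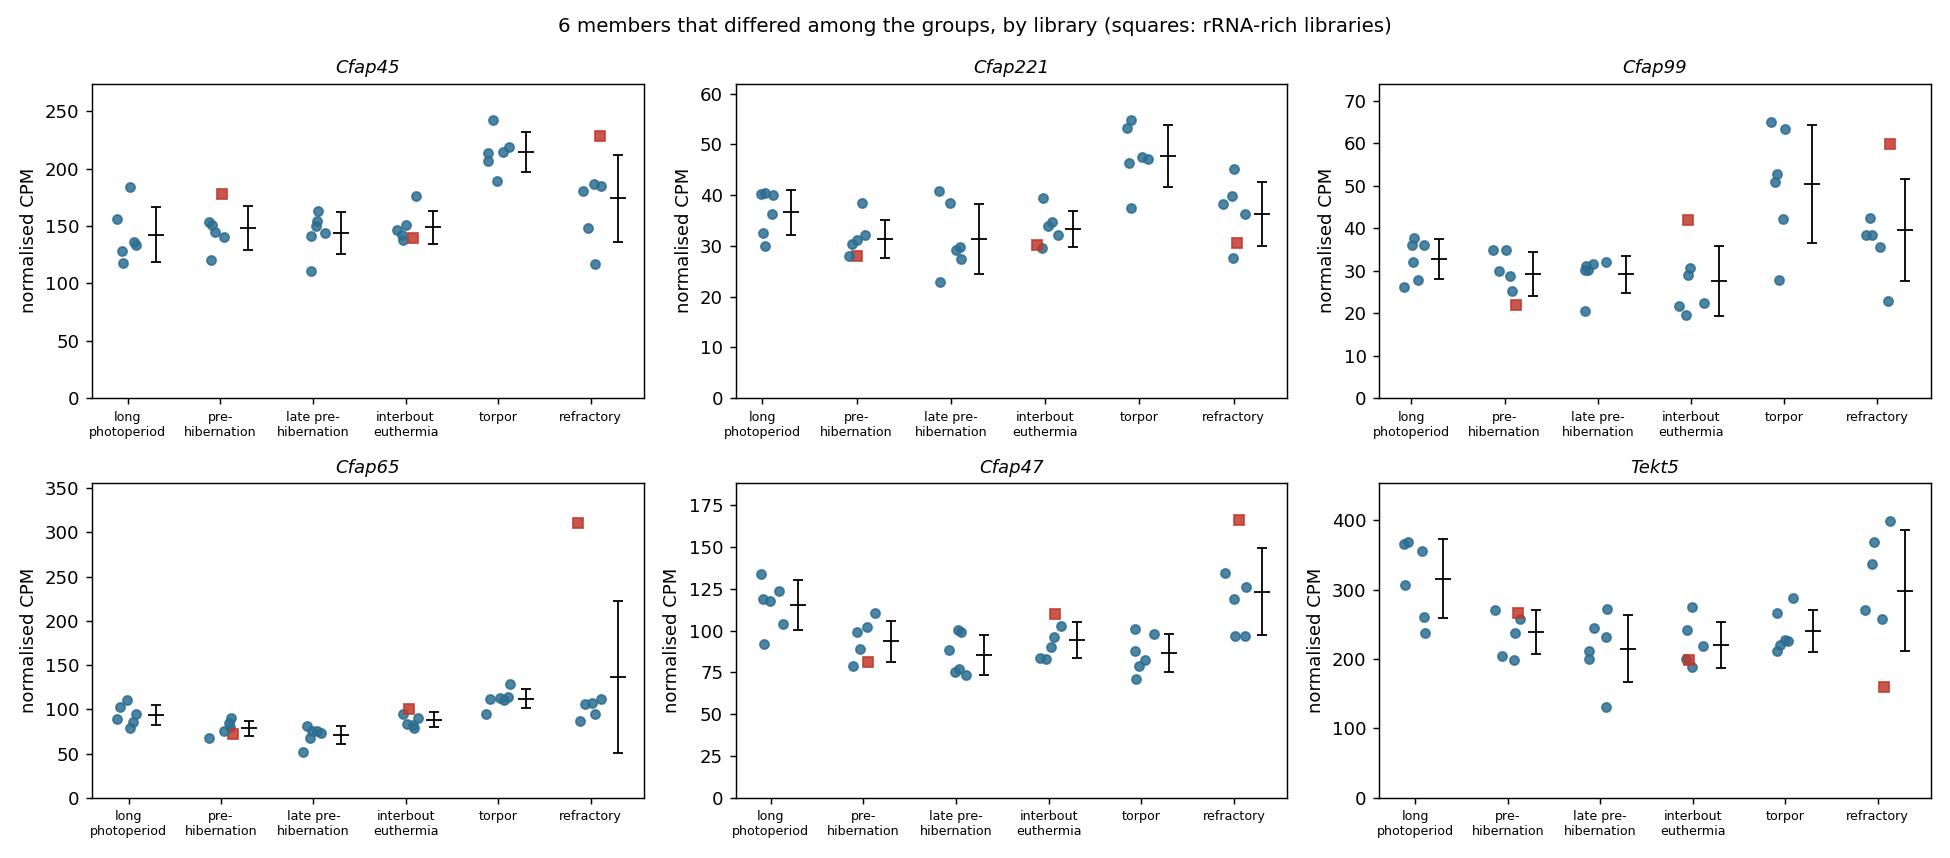
Normalised CPM (vertical axes, from 0) of 6 members that differed among the groups, by library and group. Points are libraries, squares the rRNA-rich libraries and bars the mean ± SD of 6 animals. Cfap45 in torpor lies above all interbout libraries, and Cfap65 in refractory 4 stands at 310 normalised CPM.

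The other members that differed among the groups had other orders. Cfap65 had its lowest values in late pre-hibernation, 52.1 to 80.9 normalised CPM (median 74.2), and ran from 79.3 to 111 (median 91.5) in long photoperiod and from 94.1 to 128 (median 112) in torpor (adjusted p among the 6 groups = 0.00344, edgeR). Pre-hibernation libraries ran from 67.5 to 90.6 (median 78.0) and interbout libraries from 79.3 to 99.95 (median 87.1). In refractory animals 5 libraries ran from 87.3 to 112 normalised CPM and refractory 4 stood at 310. Its adjusted p was 2.35e-05 without the rRNA-rich libraries. All torpor libraries lay above those of pre-hibernation and late pre-hibernation.

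Cfap47 of the central apparatus had its 2 highest means in long photoperiod and refractory animals (adjusted p among the 6 groups = 0.00437, edgeR). It ran from 92.1 to 134 normalised CPM in long photoperiod (median 118) and from 96.8 to 166 in refractory (median 122). The rRNA-rich refractory 4 held the highest value, and the next was 135 in refractory 2. Pre-hibernation ran from 79.0 to 110 (median 94.2), late pre-hibernation from 73.7 to 100 (median 82.6), interbout euthermia from 82.9 to 110 (median 93.2) and torpor from 71.2 to 101 (median 85.1). In none of the 6 comparisons of 2 groups did it pass by edgeR, the smallest adjusted p being 0.0733 for refractory against interbout euthermia, where DESeq2 called it. The ranges of all groups overlapped.

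Tekt5, a tektin, also had its 2 highest group means in long photoperiod and refractory animals (adjusted p among the 6 groups = 0.0387, edgeR). Long photoperiod ran from 237 to 369 normalised CPM (median 331) and refractory from 159 to 398 (median 304), with refractory 4 the lowest. Pre-hibernation ran from 199 to 270 (median 247), late pre-hibernation from 131 to 272 (median 221), interbout euthermia from 188 to 275 (median 210) and torpor from 212 to 288 (median 227). The ranges of all groups overlapped. The call was lost in 14 of 36 fits with 1 library left out. The highest adjusted p of these fits by edgeR was 0.0814, without long photoperiod 1. Without the count filter the call was also lost (adjusted p = 0.0819, edgeR). Without the rRNA-rich libraries Tekt5 was the 1 member that rose in refractory animals, from 225 ± 34.6 normalised CPM in interbout euthermia to 326 ± 61.0 (log2 fold change 0.53 ± 0.15, adjusted p = 0.043).

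Cfap54 of the central apparatus had group means between 140 ± 13.7 in late pre-hibernation and 178 ± 26.4 normalised CPM in refractory (adjusted p among the 6 groups = 0.0468). Its libraries ran from 116 to 158 (median 141) in late pre-hibernation and from 149 to 219 (median 174) in refractory. The inner arm heavy chains Dnah6, Dnah1 and Dnah3 passed with adjusted p of 0.0322, 0.0469 and 0.049. Dnah6 ran from 95.6 to 141 normalised CPM in late pre-hibernation (median 118) and from 133 to 279 in refractory (median 158). Dnah1 ran from 46.1 to 67.8 (median 59.7) and from 65.8 to 173 (median 79.4) in the same groups, and Dnah3 from 22.1 to 38.2 (median 26.9) and from 28.1 to 87.4 (median 43.9). For all 3, and for Cfap54, refractory 4 held the highest value. Of 36 fits with 1 library left out, the call was lost in 25 for Cfap54, 3 for Dnah6, 19 for Dnah1 and 26 for Dnah3. Among these fits the highest adjusted p by edgeR was 0.106 for Cfap54 without late pre-hibernation 1 and 0.0604 for Dnah6 without refractory 2. It was 0.119 for Dnah1 and 0.159 for Dnah3, both without refractory 4. Without the count filter the calls of Cfap54 and Dnah6 were also lost (adjusted p = 0.204 and 0.051, edgeR).

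Cfap251, of the calmodulin- and spoke-associated complex, passed among the 6 groups (adjusted p = 0.0411, edgeR), and the rRNA-rich libraries held its highest values. It stood at 1540 normalised CPM in refractory 4, 518 in pre-hibernation 5 and 451 in interbout euthermia 6. The other libraries of those groups ran up to 333, 238 and 222. Long photoperiod ran from 166 to 286 normalised CPM (median 211), late pre-hibernation from 129 to 191 (median 165) and torpor from 171 to 248 (median 196). Without refractory 4 the adjusted p was 0.433, and without all 3 rRNA-rich libraries 0.0284. The call was lost in 15 of 36 fits with 1 library left out.

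The 3 rRNA-rich libraries set the members apart by length. In refractory 4 the members with exons over 10 kb in sum, the 11 dynein heavy chains with Cfap47 and Cfap54 (13 genes), were a median of 0.96 above the group's other libraries on the log2(normalised CPM + 1) scale. The 20 members under 2 kb had a median deviation of -1.45. Across the 69 members the correlation of this deviation with log2 exon length was 0.75 in refractory 4, 0.55 in pre-hibernation 5 and 0.57 in interbout euthermia 6. In the other 33 libraries it ran from -0.71 to 0.30. Dnah11 stood at 222 normalised CPM in refractory 4 and at 27.1 to 44.0 in the other 5, while Cfap126 stood at 573 against 1262 to 1962.

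**Figure D4:**
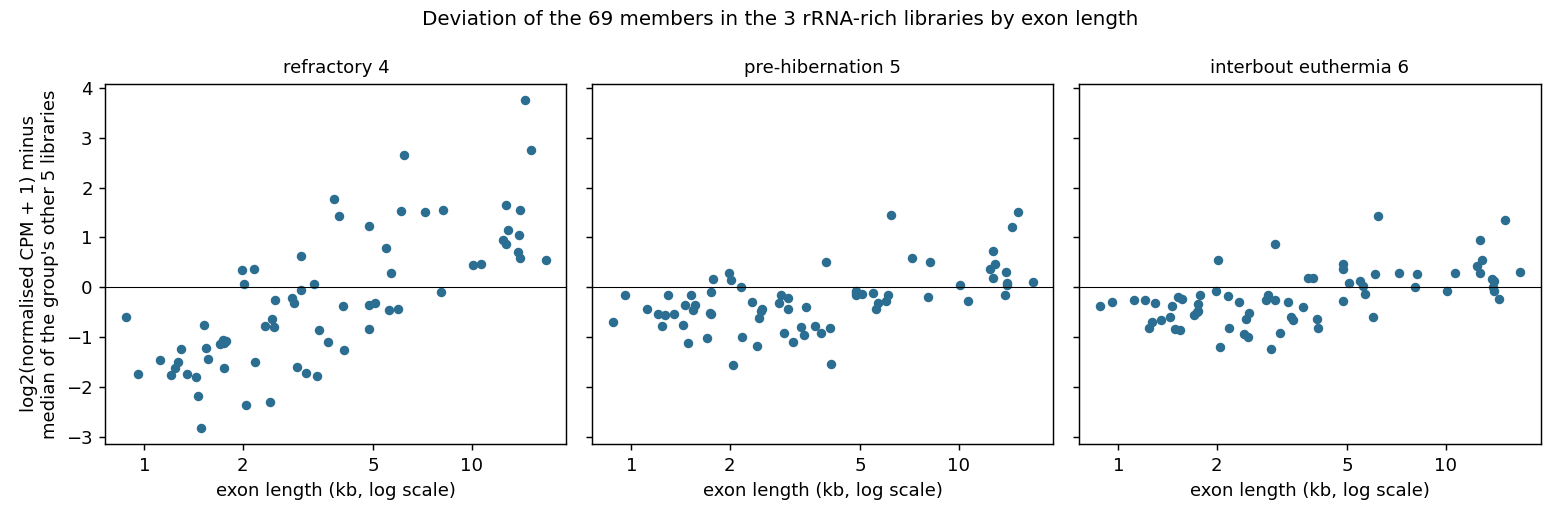
Deviation of each of the 69 members in the 3 rRNA-rich libraries (vertical axis, log2(normalised CPM + 1) minus the median of the group's other 5 libraries) against exon length in kb (horizontal log axis). Each point is a member, and long genes tend to lie above short ones in each panel, with r of 0.75, 0.55 and 0.57.

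Pre-hibernation against long photoperiod asks about the response to short days and cold, in animals 4 against a labelled 8 months old. Age, day length and temperature cannot be told apart here. No member passed by edgeR, 0 of 69 against 2.29% of all genes tested, and 7 had an unadjusted p under 0.05, all lower, against 12.3% of all genes. DESeq2 called 1 (3.55% of all genes) and limma voom 3 (11.7% of all genes). The median log2 fold change of the members was -0.18, with 62 of 69 lower, beside a median of 0.01 and 52.4% higher over all genes. Without the rRNA-rich libraries 2 of 69 fell, against 6.37% of all genes: Cfap20, a microtubule inner protein, from 199 ± 19.0 to 163 ± 15.2 normalised CPM (log2 fold change -0.29 ± 0.08, adjusted p = 0.026), and Odad3 of the docking complex, from 199 ± 22.1 to 156 ± 13.5 (-0.36 ± 0.11, adjusted p = 0.0366).

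The median differed with which long photoperiod animals were used. The aligned files of long photoperiod 4 to 6 carry another kind of name than those of 1 to 3, for a reason not given in the labels. Against 1 to 3 alone the median was -0.09 and against 4 to 6 alone -0.30, with 0 members called either way, against 0.573% and 0.588% of all genes. In a fit of the 2 groups alone 1 member was called, against 4.20%. Markers of ependymal cells outside the axoneme had a median of -0.23 (0 of 17 called), tanycyte markers 0.20 (1 of 21, lower) and pituitary markers -1.08 (2 of 9, both lower). Medians of the other cell type lists were -0.37 for neuron, -0.34 for oligodendrocyte, -0.25 for astrocyte and -0.17 for choroid plexus markers. They were -0.11 for microglia and -0.07 for endothelial and mural markers. Tanycyte markers summed to 5969 ± 732 normalised CPM in long photoperiod and 5258 ± 512 in pre-hibernation. The part of these cell types in the members' values was not tested.

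Late pre-hibernation against pre-hibernation is the step from 4 to 8 or more weeks and from 4 to 6 months of age. Weeks and age cannot be told apart here. This comparison had 0 of 69 members called by edgeR and 0 of all genes (0%). No member had an unadjusted p under 0.05, against 4.12% of all genes, and DESeq2 and limma voom called 0 members (0.0223% and 0.0558% of all genes). The count stayed at 0 without the rRNA-rich libraries (0% of all genes). The median was -0.05, with 54 of 69 lower, against -0.01 over all genes. Leaving out 1 library moved it from -0.11 (without late pre-hibernation 2) to 0.02 (without late pre-hibernation 1, the library with the lowest summed level). In the 33 libraries it was -0.11, with 61 of 69 lower.

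Interbout euthermia against late pre-hibernation, which compares warm animals after and before the torpor season began, had 0 of 69 called by edgeR and 0 of all genes (0%). Of the members, 4 had an unadjusted p under 0.05, all higher, against 6.16% of all genes, and DESeq2 and limma voom called 0 members (0.179% and 3.07% of all genes). No member passed without the rRNA-rich libraries, against 0.855% of all genes. The median was 0.12, with 60 of 69 higher, against 0.01 and 52.2% over all genes. It was 0.05 without late pre-hibernation 1 or interbout euthermia 5 and 0.19 without late pre-hibernation 2. In the 33 libraries it was 0.17, and 16 members (23.2%) had an unadjusted p under 0.05, 15 higher and 1 lower, against 12.9% of all genes.

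Refractory against interbout euthermia, which share the interbout libraries with the torpor comparison, had 0 of 69 called by edgeR against 3.50% of all genes tested. The refractory animals were 8 and the interbout animals 6 months old, and state, weeks and age cannot be told apart. At an unadjusted p under 0.05 there were 20 members (28.99%), all higher, against 19.3% of all genes. DESeq2 called 6 members (5.42% of all genes) and limma voom 3 (6.53% of all genes), and without the rRNA-rich libraries 1 of 69 passed, Tekt5, against 3.02%. The median was 0.22, with 62 of 69 higher, against 0.02 and 52.6% over all genes. Choroid plexus markers had a median of 0.43 here (2 of 12 called, both higher), endothelial and mural markers 0.63 (3 of 12, all higher) and pituitary markers 2.27 (5 of 9, all higher). Their summed level ran from 123 to 237 normalised CPM in interbout euthermia and from 139 to 1907 in refractory animals for the pituitary list, and from 83.8 to 112 and from 104 to 156 for the choroid plexus list. Medians of the other cell type lists were 0.53 for oligodendrocyte, 0.47 for neuron and 0.19 for ependymal markers outside the axoneme. They were -0.06 for tanycyte, -0.11 for astrocyte and -0.07 for microglia markers. No marker of these lists was at 0 in all libraries, and their part in the members' values was not tested.

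Refractory against long photoperiod shares the long photoperiod libraries with the pre-hibernation comparison, and sets the animals whose hibernation had ended under short days against those that had long days. By edgeR 0 of 69 members passed, against 0.329% of all genes. As many as 10 had an unadjusted p under 0.05, all higher, against 13.0% of all genes, and DESeq2 and limma voom called 0 (1.84% and 1.04% of all genes). In the 33 libraries 0 of 69 passed against 0.531%, and 0 had an unadjusted p under 0.05. The median was 0.06, with 44 of 69 higher, against 0.03 and 53.9% over all genes. Leaving out 1 library moved it from 0.01 (without long photoperiod 2) to 0.12 (without refractory 3). In the 33 libraries it was 0.10, with 63 of 69 higher. Among the 13 members over 10 kb it was 0.26 and among the 20 under 2 kb -0.03. Over the 33 libraries these became 0.08 and 0.11.

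**Figure D5:**
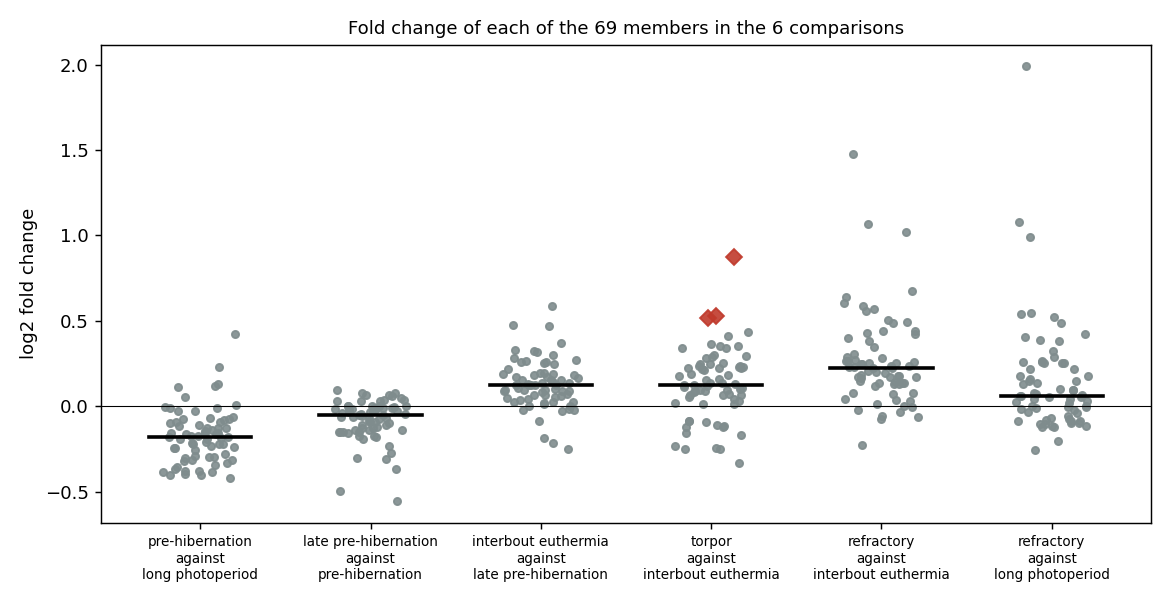
Log2 fold change (vertical axis) of each of the 69 members in the 6 comparisons (horizontal axis). Grey points did not pass, red diamonds passed an adjusted p of 0.05 by edgeR, and black lines mark the medians of -0.18, -0.05, 0.12, 0.13, 0.22 and 0.06 from left to right.

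Other cilia genes moved with the members. Over 33 libraries without the rRNA-rich ones, the mean log2 level of 69 other axoneme genes had an r of 0.99 with the members' mean, 19 dynein arm assembly factors 0.96 and 29 intraflagellar transport genes, which carry cargo along the cilium, 0.95. Ependymal markers outside the axoneme had 0.85 and tanycyte markers -0.51. Over all 36 libraries these 5 values were 0.95, 0.71, 0.88, 0.74 and -0.55, and the rho over 33 libraries was 0.97, 0.90, 0.92, 0.78 and -0.54 in the same order. The points share depth and dissection, and the values are descriptions.

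The counts that follow compare with 14.6% of all genes among the groups and 4.06% in torpor against interbout euthermia. Of the 69 other axoneme genes 5 differed among the groups, and in torpor against interbout euthermia Tsga10 rose (log2 fold change 0.64 ± 0.17, adjusted p = 0.0238) and Ribc2 fell (-0.47 ± 0.13, adjusted p = 0.0284). Assembly factors had 4 of 19, intraflagellar transport 1 of 29 and ependymal markers 2 of 17 that differed among the groups. Of 25 regulators of multiciliogenesis 7 differed among the groups and 3 fell in torpor, the Rfx factors Rfx1, Rfx3 and Rfx7. Foxj1, the transcription factor that switches on motile cilia genes, did not pass among the groups (adjusted p = 0.369). Its group means ran from 29.9 ± 5.09 normalised CPM in pre-hibernation to 43.5 ± 14.5 in refractory, and its torpor libraries from 18.8 to 72.0.

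Markers of the other cells that the dissection could hold were counted in the same test among the 6 groups, which 14.6% of all genes passed. Passing were 4 of 21 tanycyte, 4 of 12 choroid plexus, 2 of 15 neuron, 0 of 8 oligodendrocyte, 3 of 9 astrocyte, 1 of 12 microglia, 7 of 9 pituitary and pars tuberalis, and 3 of 12 endothelial and mural markers. Ependymal markers outside the axoneme summed to a median of 5331 normalised CPM in torpor, 4650 in long photoperiod, 4586 in interbout euthermia and again 4586 in refractory animals, 4082 before hibernation at 4 weeks and 3752 in its late phase. Late pre-hibernation was lowest for these markers, as it was for the members. Tanycyte markers also had their lowest median there, 4921 normalised CPM, against 4966 in refractory animals and 6195 in long photoperiod. Refractory, the highest group for the members, was not the highest for the ependymal markers. The part of a change in cell makeup in the members' levels was not tested.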

How the data were processed

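The deposited files hold raw counts per gene for each library, made by the authors with featureCounts 2.0.1 on exons of a RefSeq annotation of the hamster genome, without strand, per the file headers. No source used here gives the aligner version. Genes were tested with edgeR 4.0.16 in R 4.3.3 (robust quasi-likelihood F test, TMM factors, filterByExpr, one model over all 36 libraries, Benjamini-Hochberg threshold 0.05), as an F test over 6 groups and 6 comparisons. DESeq2 1.42.0, limma 3.58.1 (voom), other factors and filters, libraries left out, a replicate block, a cilia covariate and a fit without the 3 rRNA-rich libraries were alternatives. The fit was tested on simulated counts.

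Members and lists were chosen with earlier results of these data known. Named were, in each role, the 2 members with the highest level per kb and those that passed a test, the 3 most and 3 least correlated with the others, and the 3 genes on each side of the CPM limit. Cfap74 and Cfap20 were named after their values were seen. Each library is 1 animal per the labels, and p-values weigh differences between groups against the spread between these animals. No sequence is printed.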

Additional observations from a re-analysis of the deposited data

Results flagged for a closer look

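In 90 group-wise checks of 14 members and the summed level, 13 single libraries stood apart from the other 5 of their group, where chance gives about 1 in 20. Of these, 9 lie in rRNA-rich libraries. In refractory 4 the high values were Cfap251 at 1540 normalised CPM (next 333), Cfap65 at 310 (112), Cfap92 at 15.4 (4.77), Dnah6 at 279 (176) and Dnah8 at 37.7 (2.13). In pre-hibernation 5 they were Cfap251 at 518 (238) and Dnah8 at 5.22 (2.43), and in interbout euthermia 6 Cfap251 at 451 (222) and Dnah1 at 106 (72.6).

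The remaining 4 were in libraries with little rRNA. Cfap99 in late pre-hibernation 1 was low at 20.4 normalised CPM (next 30.1). Dnah8 in late pre-hibernation 4 was high at 2.78 (1.73), Cfap45 in interbout euthermia 5 at 176 (151) and the summed level in torpor 1 at 14282 (12154).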

How the results depend on the processing

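The 11 members that differed among the groups (14.6% of all genes) became 17 with RLE factors (2693 of 17926 genes), 26 with DESeq2 (23.0%), 53 with limma voom (43.4%), 18 with a filter of 1 CPM (15.3%) and 27 without the rRNA-rich libraries (27.7%). With no filter beyond 1 count there were 8, with Cfap251, Cfap54, Dnah6 and Tekt5 lost and Cfap100 gained. With the cilia covariate there were 13, with Cfap54 and Dnah3 lost and Cfap100, Cfap73, Dnah12 and Dnai1 gained. Leaving out 1 library each gave 5 to 21. The shares of all genes in these fits are not given here. That share was 14.6% with all libraries and 27.7% without the rRNA-rich ones. The counts therefore describe the fits and are not read as results about the members. Counts of 5 to 7 came without interbout euthermia 2 or 4, long photoperiod 1, 3 or 4, late pre-hibernation 1, 3 or 5, or torpor 2, 3 or 5. Counts of 17 came without pre-hibernation 5 or refractory 6, 20 without refractory 4 and 21 without refractory 3. Cfap45, Cfap221, Cfap65, Cfap99 and Cfap47 passed in all 36 of these fits. With the replicate number as a block 5 passed (10.7% of all genes) and no other count of changed members moved. Same-numbered libraries correlated between -0.40 and 0.34, and 4 of 36 correlated best with their own number, so the numbers were not taken to pair animals.

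Pre-hibernation against long photoperiod had 0 members (2.29% of all genes), 1 with DESeq2 (3.55%), 3 with limma voom (11.7%), 2 without the rRNA-rich libraries (6.37%), 1 in a fit of the 2 groups alone (4.20%) and 0 to 0 with 1 library left out. Torpor against interbout euthermia had 3 (4.06% of all genes), 8 with limma voom (10.7%), 5 without the rRNA-rich libraries (8.94%) and 3 to 3 with 1 left out. Refractory against interbout euthermia had 0 (3.50% of all genes), 6 with DESeq2 (5.42%), 3 with limma voom (6.53%), 1 without the rRNA-rich libraries (3.02%) and 0 to 8 with 1 left out, 8 being without refractory 3. Refractory against long photoperiod had 0, and 0 to 1 with 1 left out. Against long photoperiod 1 to 3 alone its median log2 fold change was 0.22, and against 4 to 6 alone -0.08. The causes were not tested. Shares of all genes in the fits with 1 library left out are not given, so those counts are not read as results about the members. Low counts limit Dnah8 and Cfap92 most, the members of lowest mean CPM.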
